A study of Rattus norvegicus with 91 samples.

Results

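Rat liver RNA taken 5.5 h after a dose of methylprednisolone, 3 arrays, was set against RNA of 4 control arrays, 7 of the 47 arrays of a short time course and of 91 arrays in the series. The animals were Wistar rats, the dose was 50 mg/kg, and the labels describe the controls as time 0. The labels give no sex, route of dosing or vehicle, and do not say whether each array is a separate animal, so p-values measure the spread between arrays, which may be technical. The other arrays of the short course cover 0.25 h to 72 h, and a second, long course was run on another array design.

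Methylprednisolone is a synthetic glucocorticoid. Its receptor, encoded by Nr3c1, waits in the cytoplasm on heat-shock protein chaperones, moves to the nucleus when it binds the hormone, and raises or lowers transcription of its target genes. In liver, glucocorticoids are known for inducing enzymes that turn amino acids into glucose, such as tyrosine aminotransferase (Tat), for acting with cytokines on plasma protein synthesis, and for restraining inflammatory genes.

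Each array gave 1 signal, in intensity units, per probe set, a group of short probes against 1 transcript. All 8740 probe sets other than the maker's controls were tested on log2(signal + 32), where a change of 1 is a doubling for signals well above 32 and low signals show less than their true change. Log2 changes are given with ± their standard error (SE). The spread behind each short-course SE was estimated over all 47 arrays of that course. Precision is limited by the 3 and 4 arrays of the groups. The control arrays had median signals of 189 to 226, and the treated ones of 211 to 241. The log2 ratio of 3' to 5' Gapdh probe sets, which reflects RNA integrity, was -0.05 to 0.25 in the controls and -0.12 to 0.23 at 5.5 h. An array at 6 h had been deposited on another scale and was rescaled.

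At 5.5 h, 671 of the 8740 probe sets (7.68%) passed an adjusted p of 0.05 in limma's moderated test, 468 higher (5.35%) and 203 lower (2.32%) than in the controls. Quantile normalization gave 364 higher and 249 lower, and centring each array on its median gave 300 and 286, so the balance of rises and falls depended on the scaling. Centring moved the median change of all probe sets from 0.08 to -0.04 on the log2 scale. Among called probe sets, 225 rose and 128 fell by more than 1 on the log2 scale, and 34 rose and 22 fell by more than 2. The 3 treated arrays lay outside the range of the 4 controls for 1707 probe sets (19.5%), of which 619 were also past the threshold. Taking 1 probe set for each of 4736 named genes, the brightest, 299 genes rose (6.31%) and 126 fell (2.66%), and the median log2 change was 0.09. A fit of only the 2 groups compared called 457 probe sets, of which 344 were among the 671. Without 5.5 h replicate 2 the count of probe sets was 286, without 5.5 h replicate 1 or 3 it was 442 or 427, and without control 3 or 4 it was 383 or 406.

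Of 10 measured hepatocyte markers, 8 were at or above 5059 on each of the 7 arrays. The others were Alb, at 0.152 in control 1 and 61.9 in 5.5 h replicate 2, and Ahsg, at 368 in control 1. The 10 summed to between 75290 and 247876 in the controls and between 94549 and 150188 at 5.5 h, a spread in which these low values count, and 0 passed the threshold. Sums of 5 neutrophil markers were 361 to 920.0 in the controls and 1307 to 1508 at 5.5 h, with Defa5, RatNP-3b and Cxcr2 below the array median of 222. The other members were S100a8 and S100a9, given below. Sums of 6 Kupffer cell and macrophage markers were 7653 to 10803 and 13994 to 16892, and those of 8 stellate and fibroblast markers 5937 to 7625 and 8708 to 9180. The macrophage sum holds Cd14. Of those 6 markers, 3 had a log2 change above 0 and 3 below, with a median of -0.05. The 1 macrophage marker past the threshold was Cd14, a lipopolysaccharide co-receptor, at 1897, 1910.0, 1962 and 1286 in the controls and 7027, 8048 and 6845 at 5.5 h (log2 change 2.05 ± 0.44, adjusted p = 0.0026). The Kupffer cell lectin Clec4f stood at 1473, 1603, 1885 and 2223 in the controls and 1385, 755 and 823 at 5.5 h. Lymphocyte, NK cell, erythroid, cholangiocyte, pancreatic and skeletal muscle lists had 0 members past the threshold. Of 5 endothelial markers, 4 had a log2 change above 0 and 1 below, with a median of 0.22. Their sums were 1253 to 1686 in the controls and 1419 to 1826 at 5.5 h. The 1 below 0 was the receptor gene Kdr, which fell (-1.37 ± 0.36, adjusted p = 0.0154). The call of Kdr ended without 5.5 h replicate 1 or 2 (adjusted p 0.0559 to 0.0636). In whole liver, fewer cells of a type and less RNA per cell cannot be told apart.

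Tat, the textbook glucocorticoid-induced enzyme of tyrosine breakdown, stood at 3341, 9713, 8588 and 4209 in the controls and at 11866, 11209 and 11162 at 5.5 h. All 3 treated arrays lay above all 4 controls, but the controls were themselves far apart, and the log2 change of 0.96 ± 0.32 missed the threshold (adjusted p = 0.0601). For Tat the threshold was passed with quantile normalization (adjusted p = 0.0289), where the dimmest 30% of probe sets were left out (adjusted p = 0.0438), with array weights (adjusted p = 0.0316), and without control 2 or 3 (adjusted p of 0.016 and 0.0431). With median centring the adjusted p was 0.124, with only the groups compared 0.203 and with a replicate block 0.202. It was 0.198 and 0.185 without control 1 or 4, and 0.125 to 0.155 without any 1 array of 5.5 h. Nr3c1, the receptor, was at 294, 236, 247 and 265 in the controls and 219.7, 187 and 215 at 5.5 h. Its 3 treated values lay below the controls, and the change of -0.29 ± 0.27 was not past the threshold (adjusted p = 0.596).

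Of 16 measured genes on a list of known glucocorticoid-induced genes, 5 rose and 0 fell, where 6.31% of all genes rose and 2.66% fell. The median log2 change was 1.19 against 0.09 for all genes. Dusp1, a phosphatase that switches off MAP kinases, was at 742, 541, 548 and 580.1 in the controls and 2676, 2557 and 2356 at 5.5 h, a log2 change of 2.02 ± 0.54, adjusted p = 0.0171. Zfp36, which speeds decay of cytokine mRNAs, rose from 1636, 1844, 934 and 1021 to 4084, 3501 and 4002 (1.54 ± 0.35, adjusted p = 0.00401). The transcription factor Klf9 rose by 1.40 ± 0.35 (adjusted p = 0.0106) and the NF-kappaB inhibitor gene Nfkbia by 1.86 ± 0.59 (adjusted p = 0.0482). The kinase gene Sgk1 rose by 1.33 ± 0.40 (adjusted p = 0.0342). These 5 genes had no overlap between treated and control arrays, and neither did 6 other members of the list, among them Il1rn at 2.23 (adjusted p = 0.0604) and Cebpb at 0.64 (adjusted p = 0.261). Over all probe sets, 19.5% had no overlap, in either direction. Pck1, the gluconeogenic enzyme, overlapped its controls, which ran from 2553 to 13869. Without single arrays the calls ended for Dusp1 (without 5.5 h replicate 1 or 2, adjusted p 0.0568 to 0.066), Klf9 (without 5.5 h replicate 2 or control 3, adjusted p 0.0574 to 0.0612), Nfkbia (without any array but control 2, adjusted p 0.0743 to 0.129) and Sgk1 (without any array but control 1 and control 2, adjusted p 0.0624 to 0.142), and the call of Zfp36 held in each case. The count of risers on the list fell to 1 without 5.5 h replicate 2 and reached 7 without control 2. Among 9 measured chaperones and cofactors of the receptor, the co-chaperone gene Stip1 alone was called, at 0.91 ± 0.27, adjusted p = 0.0313, the median was -0.15 (0.03 with quantile normalization), and the call of Stip1 ended without any array but control 2 (adjusted p 0.0506 to 0.126).

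The gene with the largest rise was Gucy2c, a receptor guanylyl cyclase best known in intestine, where it binds guanylin peptides. Its signal was 81.3, 272, 50.8 and 33.5 in the controls and 1416, 3497 and 1941 at 5.5 h, a change of 4.21 ± 0.68, adjusted p = 0.00015. Zfp354a, a zinc-finger transcription factor of kidney and liver, rose from 80.8, 94.4, 129 and 54.9 to 1651, 1282 and 1199 (3.55 ± 0.67, adjusted p = 0.000897). The treated and control ranges of both genes were far apart. Cited2, a coregulator that binds the coactivators CBP and p300, rose from 1139, 449, 503 and 453 to 4212, 3883 and 3295 (2.62 ± 0.53, adjusted p = 0.00177), with control 1 set apart from the other controls. Its 2 further probe sets moved the same way.

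Several of the largest rises were enzymes. Pla1a, a phospholipase that acts on phosphatidylserine, went from 141, 1622, 590.1 and 279 to 3795, 4462 and 3806 (3.06 ± 0.57, adjusted p = 0.000816), with controls spread over a wide range. Cyp7b1, an oxysterol 7-alpha-hydroxylase of the acidic bile acid pathway, had close controls at 179, 184, 155 and 131 and rose to 1707, 1998 and 1096 (3.04 ± 0.51, adjusted p = 0.000238). Odc1, which makes putrescine in polyamine synthesis, rose from 1218, 1600.5, 813 and 915 to 6412, 5870.1 and 3443 (2.17 ± 0.31, adjusted p = 4.10e-05). Pfkfb1, the liver enzyme that sets the level of fructose 2,6-bisphosphate, had controls of 1177, 86.2, 159 and 423 and treated values of 1920.0, 1484 and 2401 (2.53 ± 0.77, adjusted p = 0.0355). The call of Pfkfb1 ended without any array but control 1 (adjusted p 0.0546 to 0.12), with quantile normalization (adjusted p = 0.0538) and with median centring (adjusted p = 0.0578). Each of its 3 other probe sets moved in the same direction.

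Among rises tied to protein handling, Ube2g2, a ubiquitin-conjugating enzyme of endoplasmic reticulum quality control, rose from 223, 489, 339 and 155 to 1784, 2048 and 1455 (2.52 ± 0.41, adjusted p = 0.00016). Hspa13, an HSP70-family protein of the endoplasmic reticulum, rose from 219, 434, 88.5 and 96.5 to 1086, 1429 and 946 (2.50 ± 0.39, adjusted p = 0.000102), and Ppil3, a cyclophilin-like prolyl isomerase, from 415, 250.2, 90.3 and 266 to 1022, 1076 and 1196 (2.11 ± 0.47, adjusted p = 0.00389). Other rises of this size were in Polg2, the accessory subunit of mitochondrial DNA polymerase (2.66 ± 0.41, adjusted p = 9.12e-05), in Tfrc, the transferrin receptor for iron uptake (2.35 ± 0.44, adjusted p = 0.000819), in the kinase gene Nek7 (2.12 ± 0.32, adjusted p = 7.40e-05) and in Ica1 (2.59 ± 0.44, adjusted p = 0.000268). Fabp4, a fatty acid carrier of adipocytes and macrophages, was near the bottom of the scale in the controls (4.05, 14.5, 22.5 and 11.5) and at 286, 419 and 175 at 5.5 h (2.79 ± 0.63, adjusted p = 0.00394). The sum of 5 adipocyte markers, Fabp4 among them, was 3083 to 5362 in the controls and 3426 to 5276 at 5.5 h. The macrophage sum, which holds Cd14, was higher as given above, but the median change of those markers was -0.05. The part of either cell type in the Fabp4 change was not tested.

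**Figure D1:**
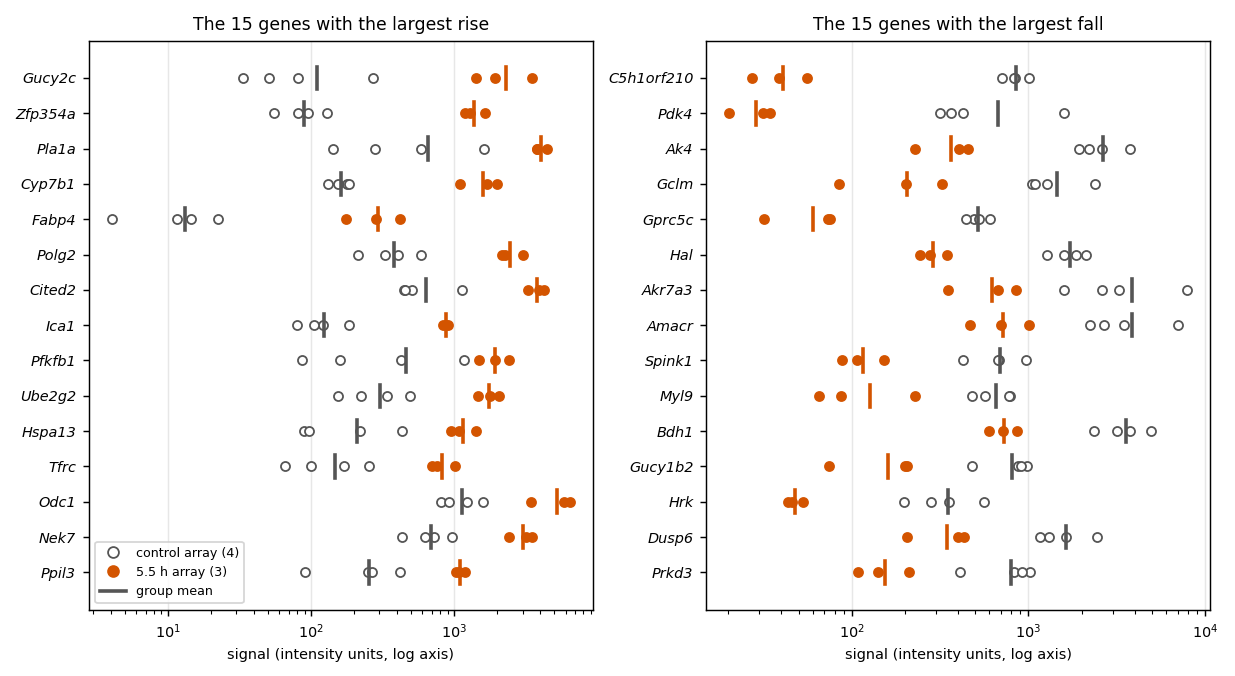
Signal of each array, in intensity units on a log axis, for the 15 genes that rose most (left) and the 15 that fell most (right). Open circles are the 4 controls, filled circles the 3 arrays at 5.5 h, and bars the group means. In every row the filled circles lie outside the range of the open ones, which was part of the rule that chose these genes.

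The largest fall was in C5h1orf210, from 844, 706, 1010.3 and 826 in the controls to 38.5, 27.1 and 56.1 at 5.5 h (-3.61 ± 0.81, adjusted p = 0.00387). Pdk4, the kinase that shuts pyruvate dehydrogenase and so spares glucose carbon, fell from 425, 1593, 365 and 318 to 20.2, 31.5 and 34.4 (-3.23 ± 0.64, adjusted p = 0.00152). The treated values of both genes were near the added constant of 32, so the fitted change is smaller than the ratio of the signals. Ak4, a mitochondrial adenylate kinase, fell from 3776, 1943, 2211 and 2613 to 457, 229 and 404 (-2.76 ± 0.55, adjusted p = 0.00153). Bdh1, the last enzyme of ketone body synthesis to 3-hydroxybutyrate, fell from 3161, 3755, 2357 and 4963 to 858, 720.4 and 601 (-2.21 ± 0.36, adjusted p = 0.00015).

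Falls in detoxification and amino acid enzymes were led by Gclm, the modifier subunit of the enzyme that starts glutathione synthesis. It went from 2376, 1044, 1272 and 1087 to 202, 84.6 and 326 (-2.71 ± 0.57, adjusted p = 0.00243), and its 2 other probe sets moved the same way. Akr7a3, an aldehyde reductase that acts on aflatoxin dialdehyde, fell from 7893, 2601, 1593 and 3269.7 to 350.2, 674 and 848 (-2.39 ± 0.58, adjusted p = 0.00761). Hal, histidine ammonia lyase, fell from 1851, 1273, 2120.1 and 1589 to 276, 243 and 344 (-2.43 ± 0.53, adjusted p = 0.00303), and Amacr, a racemase for branched fatty acids and bile acid intermediates, from 2684, 3479, 7042 and 2236 to 696, 464 and 1003 (-2.29 ± 0.69, adjusted p = 0.0342). The calls that ended when 1 array was omitted were those of Akr7a3 (without 5.5 h replicate 1, adjusted p 0.0607) and Amacr (without 5.5 h replicate 1 or 2 or 3 or control 3, adjusted p 0.0531 to 0.169).

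Genes of signalling were also among the 15 largest falls. Gucy1b2, a subunit of soluble guanylyl cyclase, fell from 872, 480.1, 979 and 908 to 205, 74.9 and 199.9 (-2.18 ± 0.45, adjusted p = 0.00202), while the receptor cyclase gene Gucy2c was the largest riser. Dusp6, a phosphatase specific for ERK, fell from 1301, 2440.3, 1635 and 1162 to 206, 434 and 399 (-2.14 ± 0.58, adjusted p = 0.0192), in contrast to Dusp1. The orphan receptor gene Gprc5c fell by 2.60 on the log2 scale (SE 0.55, adjusted p = 0.00243) and the protein kinase D gene Prkd3 by 2.12 (SE 0.57, adjusted p = 0.0171). Spink1, a trypsin inhibitor, fell from 428, 684, 966 and 673 to 87.6, 107 and 152 (-2.25 ± 0.42, adjusted p = 0.000801), with the sum of 8 pancreatic markers at 1900.4 to 6291 in the controls and 1966 to 2095 at 5.5 h, and their part in it was not tested. Myl9, a myosin light chain of smooth muscle and stromal cells, fell by 2.22 (SE 0.59, adjusted p = 0.0157). For Hrk, a BH3-only cell death gene, the named probe set fell by 2.17 (SE 0.52, adjusted p = 0.00751), but 0 of its 3 other probe sets moved in that direction. Calls ended for Dusp6 (without 5.5 h replicate 1, adjusted p 0.103), Prkd3 (without 5.5 h replicate 1 or 2 or control 3 or 4, adjusted p 0.0504 to 0.0961) and Myl9 (without 5.5 h replicate 1 or 3, adjusted p 0.0691 to 0.0869).

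Of the 30 genes with the largest changes, 24 kept their calls when each of the 7 arrays was left out in turn, and so did 41 of the 97 called genes named by rule.

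Proteasome subunits held the largest share of risers among the 30 gene lists. Over all genes 6.31% rose and 2.66% fell, which is the background for each list count here and below. The proteasome is the barrel-shaped protease that degrades ubiquitin-tagged proteins, with an alpha and beta subunit core and a cap that holds ATPase subunits. Of 19 measured subunits, 9 rose and 0 fell, 18 had a log2 change above 0, and the median was 0.59. Quantile normalization left 7 and median centring 6 of them past the threshold, with medians of 0.52 and 0.47. The alpha subunit gene Psma6 rose from 3167, 3334, 2782 and 2911 to 6418, 6537 and 5838 (1.03 ± 0.17, adjusted p = 0.000236), with little spread in either group. Psma7 went from 1599, 2372, 2399.5 and 1763 to 3682, 3668 and 3557 (0.85 ± 0.19, adjusted p = 0.00398) and Psma5 from 1893, 2109.6, 1238 and 1797 to 3644, 2991 and 3241 (0.91 ± 0.24, adjusted p = 0.0147).

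The core subunits Psmb1 (0.73 ± 0.16, adjusted p = 0.00292), Psma1 (0.60 ± 0.14, adjusted p = 0.00761) and Psma4 (0.66 ± 0.17, adjusted p = 0.0128) and the ATPases Psmc2 (0.73 ± 0.21, adjusted p = 0.023), Psmc4 (0.66 ± 0.17, adjusted p = 0.0166) and Psmc5 (0.61 ± 0.18, adjusted p = 0.0283) made up the other risers. The catalytic subunit Psmb5 stood at 6646, 6033, 4456 and 5571 in the controls and 5818, 6981 and 7113 at 5.5 h, with overlap (0.23 ± 0.13, adjusted p = 0.292), and the cap subunit Psmd1 had a change of -0.07 ± 0.20, adjusted p = 0.893. Calls that did not survive the loss of 1 array were those of Psma5 (without 5.5 h replicate 1 or control 3, adjusted p 0.0686 to 0.0731), Psma4 (without 5.5 h replicate 3 or control 3 or 4, adjusted p 0.051 to 0.0754), Psmc2 (without 5.5 h replicate 1 or control 2, adjusted p 0.0539 to 0.14), Psmc4 (without 5.5 h replicate 1, adjusted p 0.121) and Psmc5 (without 5.5 h replicate 1 or 3 or control 1 or 4, adjusted p 0.0682 to 0.117), and 5 to 10 subunits were called in these fits, the fewest without 5.5 h replicate 1.

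**Figure D2:**
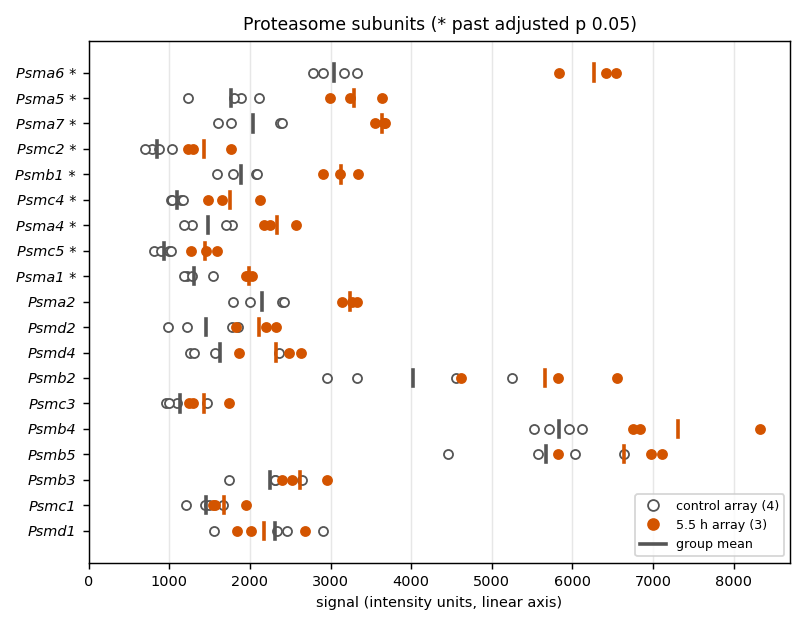
Signal of each array, in intensity units on a linear axis, for the 19 measured proteasome subunits, ordered by log2 change. Open circles are the 4 controls, filled circles the 3 arrays at 5.5 h, bars the group means, and a star marks an adjusted p under 0.05. For Psma6 the treated arrays lie at 6418, 6537 and 5838 and the controls at 3167, 3334, 2782 and 2911, and the groups overlap from Psmd2 downwards except for Psmb4.

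A glucocorticoid response element is classically an inverted repeat read by a receptor dimer. A palindrome of the half-sites GNACA and TGTNC, 3 bases apart and with N for any base, was searched on both strands in the RefSeq promoters of genes on the array (build GRCr8, 250 bases before to 50 after each listed start). It was present for 3 of 257 risers that matched the table (1.17%), 0 of 99 fallers (0%), 20 of 3871 of all genes tested (0.517%) and 126 of 27457 genes in the table (0.459%). The 3 risers with a match are shown with the 250 bases before the start and the palindrome in capitals, because Psma6 is the proteasome subunit with the largest rise. Ssb encodes the La RNA-binding protein. The Psma6 window is chr6:78514097-78514346, plus strand, that of Ssb chr3:75024259-75024508, plus strand, and that of Rmdn3 chr3:126600419-126600668, minus strand. The first base of the palindrome lies 222, 248 and 183 bases before the start in the same order. A match describes letters only, and most risers had none in this window.
Psma6: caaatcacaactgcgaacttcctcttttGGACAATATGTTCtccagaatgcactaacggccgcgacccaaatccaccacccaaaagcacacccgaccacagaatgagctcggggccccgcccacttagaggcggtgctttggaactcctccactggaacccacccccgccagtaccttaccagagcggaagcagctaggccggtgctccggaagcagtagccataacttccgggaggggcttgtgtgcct
Ssb: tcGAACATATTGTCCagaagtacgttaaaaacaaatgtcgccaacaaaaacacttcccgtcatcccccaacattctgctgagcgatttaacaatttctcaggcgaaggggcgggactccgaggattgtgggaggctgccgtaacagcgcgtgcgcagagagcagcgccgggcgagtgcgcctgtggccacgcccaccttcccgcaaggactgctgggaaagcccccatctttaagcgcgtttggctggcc
Rmdn3: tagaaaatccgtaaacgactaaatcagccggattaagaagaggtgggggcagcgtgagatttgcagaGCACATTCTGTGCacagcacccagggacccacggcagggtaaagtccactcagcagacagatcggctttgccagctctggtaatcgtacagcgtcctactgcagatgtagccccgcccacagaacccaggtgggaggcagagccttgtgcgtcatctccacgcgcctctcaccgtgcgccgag

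Chaperone genes followed in the same direction in smaller number. Of 24 measured heat-shock, chaperonin and endoplasmic reticulum folding genes, 4 rose and 0 fell, with a median of 0.25 (0.35 with quantile normalization, 0.13 with median centring). Dnaja2, an HSP40 co-chaperone, rose from 815, 1352, 909.6 and 838 to 1534, 2504 and 2352 (1.10 ± 0.24, adjusted p = 0.00357), and Cct3, a subunit of the ring chaperonin that folds actin and tubulin, from 717, 748, 828 and 876 to 2154, 1540.1 and 1478 (1.08 ± 0.26, adjusted p = 0.00761). Hsph1, an HSP110 chaperone, rose by 1.25 ± 0.35 (adjusted p = 0.0235) and the translocon gene Sec61a1 by 0.51 ± 0.16 (adjusted p = 0.0391). Calls ended for Cct3 (without 5.5 h replicate 1, adjusted p 0.0636), Hsph1 (without 5.5 h replicate 2 or 3 or control 3 or 4, adjusted p 0.0509 to 0.144) and Sec61a1 (without any array but control 2, adjusted p 0.0537 to 0.162), and that of Dnaja2 held without any 1 array. Quantile normalization called 7 members and median centring 3.

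Of 16 translation factors and tRNA synthetases, 2 rose, the cap-binding factor gene Eif4e from 601, 582, 349 and 517 to 1146, 1335 and 1025 (1.16 ± 0.25, adjusted p = 0.00313) and the initiation factor gene Eif2s1 by 0.60 ± 0.18 (adjusted p = 0.031). Ribosomal protein genes gave 2 risers among 35, a share below the 6.31% of all genes, Rpl6 (0.61 ± 0.13, adjusted p = 0.0033) and Rps24 (0.79 ± 0.22, adjusted p = 0.0243), and a median of 0.11 that turned to -0.01 with median centring. Of 30 genes of mitochondrial oxidative phosphorylation, 2 rose and 2 fell, led by the phosphate carrier Slc25a3 (0.52 ± 0.13, adjusted p = 0.00828) and by Atp5f1e (-0.44 ± 0.12, adjusted p = 0.0216), and the median was 0.01 (-0.11 with median centring), with the share of risers close to that of all genes. The complex I genes Ndufa5 (0.47 ± 0.15, adjusted p = 0.0402) and Ndufs6 (-0.44 ± 0.12, adjusted p = 0.0216) moved in opposite directions. Without single arrays the calls ended for Eif2s1 (without any array but control 2 and control 4, adjusted p 0.0503 to 0.125), Rps24 (without any array but control 1 and control 2, adjusted p 0.053 to 0.104), Slc25a3 (without 5.5 h replicate 2, adjusted p 0.0545), Atp5f1e (without 5.5 h replicate 2 or 3 or control 3 or 4, adjusted p 0.0714 to 0.114), Ndufa5 (without 5.5 h replicate 2 or 3 or control 3 or 4, adjusted p 0.126 to 0.19) and Ndufs6 (without 5.5 h replicate 1 or 2 or control 4, adjusted p 0.058 to 0.114).

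Among 25 measured amino acid breakdown enzymes, 1 rose and 4 fell, where 6.31% of all genes rose and 2.66% fell. Of the 25, 18 had a change below 0, and the median was -0.16 (-0.28 with median centring). Quantile normalization called 3 higher and 4 lower. The riser was Got1, cytosolic aspartate aminotransferase, from 1639.7, 3004, 3394 and 1399 to 9061, 9085 and 5689 (1.80 ± 0.47, adjusted p = 0.0144). Hal, described above, fell most, and Gls2, liver glutaminase, fell from 1064, 1279.8, 3112 and 1609 to 828, 698 and 663 (-1.12 ± 0.28, adjusted p = 0.00868). Kmo, an enzyme of the kynurenine pathway of tryptophan, fell from 3327, 2646, 2803 and 3506 to 924, 1517 and 1919.6 (-1.11 ± 0.31, adjusted p = 0.0232). Bckdha, of branched-chain amino acid breakdown, fell by 0.66 on the log2 scale (SE 0.18, adjusted p = 0.0227) with overlapping groups. Tdo2, tryptophan dioxygenase and a classical glucocorticoid target, was at 4760.4, 4147, 8499 and 5775 in the controls and 15001, 7649.9 and 8059.6 at 5.5 h (0.80 ± 0.32, adjusted p = 0.133). The calls that ended when 1 array was omitted were those of Got1 (without 5.5 h replicate 1 or 2 or control 4, adjusted p 0.061 to 0.0779), Gls2 (without control 3, adjusted p 0.0623), Kmo (without 5.5 h replicate 1 or 2 or control 4, adjusted p 0.0629 to 0.159) and Bckdha (without any array but 5.5 h 1 and control 2, adjusted p 0.0542 to 0.143).

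In the polyamine branch, Amd1, which makes the aminopropyl donor for spermidine, rose from 150.2, 158, 282 and 186 to 1246, 633 and 766 (1.99 ± 0.40, adjusted p = 0.00153), beside Odc1. They were the 2 risers among 14 genes of methionine, one-carbon and polyamine metabolism, and both held without any 1 array. Pemt, which makes phosphatidylcholine by methylation, fell (-0.64 ± 0.20, adjusted p = 0.0483). Of 5 urea cycle genes, Ass1 rose, from 6053, 4631, 10512 and 4302 to 15228, 10548 and 9578 with overlap (0.95 ± 0.30, adjusted p = 0.0459), and Cps1 did not pass (-0.11 ± 0.19, adjusted p = 0.795). Among 11 amino acid transporters, Slc3a2, the heavy chain of several exchangers, rose from 2366, 3506, 842 and 1868 to 5006, 5651 and 4918 (1.43 ± 0.41, adjusted p = 0.0272). The glutamate transporter gene Slc1a1 also rose, with overlap (0.84 ± 0.24, adjusted p = 0.0267), and its 2 other probe sets changed by -0.44 and 0.11. Calls ended for Pemt (without any array but control 2, adjusted p 0.0691 to 0.192), Ass1 (without any array but control 3, adjusted p 0.0628 to 0.203), Slc3a2 (without any array but control 1 and control 2, adjusted p 0.0606 to 0.144) and Slc1a1 (without any array but control 2 and control 4, adjusted p 0.0659 to 0.147).

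Of 19 genes of gluconeogenesis and glycolysis, 2 rose and 1 fell, where 6.31% of all genes rose and 2.66% fell. The median was near 0, and -0.12 with median centring. The risers were Pfkfb1, above, and Pfkl, liver phosphofructokinase, which went from 598, 687, 406 and 433 to 1721, 1251 and 1203 (1.35 ± 0.26, adjusted p = 0.00102). Pc, pyruvate carboxylase, the first step of gluconeogenesis from pyruvate, fell from 3476, 1575, 2588 and 1912 to 1332, 894 and 1054 (-1.06 ± 0.34, adjusted p = 0.047). Of 6 glycogen enzymes 0 passed, their median was 0.04 (-0.07 with quantile normalization), and Gys2, liver glycogen synthase, stood at 891, 1449.6, 1049 and 674 in the controls and 562, 540.1 and 553 at 5.5 h (-0.79 ± 0.29, adjusted p = 0.0924). For Gsk3b the change was 0.82 ± 0.30, adjusted p = 0.0952. Without 1 array, the call of Pc ended for any array but control 2 (adjusted p 0.0607 to 0.207), while that of Pfkl held in each case.

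Fatty acid oxidation and ketogenesis had 3 fallers and 0 risers among 23 measured genes, with a median of -0.31. Among all genes 2.66% fell and 6.31% rose. Beside Pdk4 and Bdh1, Acaa2, the thiolase of mitochondrial beta-oxidation, fell from tightly grouped controls of 11606, 12019, 11334 and 10399.8 to 6083, 5480.1 and 6187 (-0.93 ± 0.24, adjusted p = 0.0137). Its call ended without 5.5 h replicate 2 (adjusted p = 0.0753). Of 16 genes of fatty acid and triglyceride synthesis, 1 rose (Fabp4) and 1 fell: Srebf1, which drives lipogenic genes, was at 2024, 473, 953 and 1429.5 in the controls and 341, 464 and 388 at 5.5 h (-1.37 ± 0.40, adjusted p = 0.028). The Srebf1 call ended without any array but control 2 (adjusted p 0.0505 to 0.105). Among 15 cholesterol genes 0 passed, and the largest changes were those of Fdft1, squalene synthase (-1.26 ± 0.42, adjusted p = 0.0612), and Nsdhl (-1.18 ± 0.62, adjusted p = 0.27). The median of the cholesterol list, 0.11, turned to -0.01 with median centring.

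Bile acid genes had the lowest median of the 30 lists, -0.70. There were 2 risers and 4 fallers among 18, where 6.31% of all genes rose and 2.66% fell. Hsd3b7, which modifies the sterol ring early in bile acid synthesis, had controls of 3952, 3465, 3467 and 3932 and fell to 883, 991 and 1169.6 (-1.84 ± 0.31, adjusted p = 0.000239). Nr1h4, the bile acid receptor FXR, fell from 1875, 1266, 1362 and 769 to 425, 311 and 367 (-1.70 ± 0.38, adjusted p = 0.00343), and the reductase gene Akr1d1 from 6436, 7461, 7943 and 8766 to 2864, 3343 and 3827 (-1.19 ± 0.30, adjusted p = 0.0105). Amacr, above, was the fourth. Against these, Cyp7b1 rose and Cyp27a1, which starts the acidic pathway, rose by 0.51 ± 0.16 (adjusted p = 0.0441). Cyp7a1, the rate-limiting enzyme of the classical pathway, was at 1865, 383, 2103 and 3394 in the controls and 3883, 6895 and 10675 at 5.5 h, without overlap but with a wide error (2.10 ± 1.39, adjusted p = 0.42). The uptake transporter gene Slc10a1 overlapped (-1.47 ± 0.67, adjusted p = 0.187). Calls ended for Akr1d1 (without 5.5 h replicate 1, adjusted p 0.0566), Cyp27a1 (without any 1 of the 7 arrays, adjusted p 0.0555 to 0.187) and Amacr (without 5.5 h replicate 1 or 2 or 3 or control 3, adjusted p 0.0531 to 0.169), and 2 to 5 fallers were called in these fits, the fewest without 5.5 h replicate 1.

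Plasma protein genes had few single calls. Of 20 acute-phase genes 2 rose and 0 fell, although 16 had a change below 0 and the median was -0.44. With quantile normalization 3 rose and the median was -0.11, and leaving out single arrays gave 0 to 3 risers and 0 to 2 fallers. Alpha-2-macroglobulin, A2m, the acute-phase protein typical of rats, was at 1010.2, 2699, 1540.1 and 4291 in the controls and 13607, 4041 and 6207 at 5.5 h (1.74 ± 0.46, adjusted p = 0.0143), and 4 of its 5 other probe sets moved the same way. Lbp, which carries lipopolysaccharide to Cd14, rose by 1.50 ± 0.46 (adjusted p = 0.0378), both with 1 or more treated arrays inside the range of the controls. Some of the brightest probe sets were erratic within groups: Hpx stood at 629, 30, 24658 and 22171 in the controls and 247, 0.0802 and 0.142 at 5.5 h, and albumin (Alb) at 0.152, 7879, 32410.4 and 23784 and 18404, 61.9 and 3116. Neither passed the threshold (adjusted p = 0.0624 and adjusted p = 0.803).

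Of 25 other plasma proteins and apolipoproteins 0 rose, 3 fell and 24 had a change below 0, with a median of -0.36 (-0.12 with quantile normalization and 1 faller). Mug1, a liver proteinase inhibitor of the macroglobulin family, fell from 9521, 11949, 18639 and 11456 to 5143, 5988 and 7766 (-1.004 ± 0.25, adjusted p = 0.0113). Afm, a vitamin E binding protein, fell by 0.77 (SE 0.22, adjusted p = 0.0254), and Proc, protein C of the anticoagulant pathway, from 4380.2, 2888, 4422 and 3339.8 to 2649, 1967 and 2119 (-0.72 ± 0.17, adjusted p = 0.00727). Calls that did not survive the loss of 1 array were those of A2m (without 5.5 h replicate 1 or control 1 or 3, adjusted p 0.0524 to 0.132), Lbp (without any array but control 2, adjusted p 0.0623 to 0.178), Mug1 (without 5.5 h replicate 1 or 2 or control 3, adjusted p 0.0559 to 0.0725), Afm (without 5.5 h replicate 1 or 2 or control 3 or 4, adjusted p 0.0727 to 0.164) and Proc (without 5.5 h replicate 2, adjusted p 0.0661). With quantile normalization Mug1 and Afm missed the threshold (adjusted p 0.0722 and 0.111). The list had 0 fallers without 5.5 h replicate 2 and 6 without control 1.

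Of 23 genes of the growth hormone, insulin and IGF axis, 1 rose and 3 fell, with a median of -0.15 (-0.27 with median centring). The share of risers was below the 6.31% of all genes, and 2.66% of all genes fell. Ghr, the growth hormone receptor, fell from 9220.1, 5579, 8378 and 5670.4 to 2935, 4222 and 4192 (-0.91 ± 0.25, adjusted p = 0.0213), and Igfals, which holds IGF in its large plasma complex, from 5396, 2709, 4689 and 4476 to 2301, 1496 and 1931 (-1.14 ± 0.31, adjusted p = 0.0188). Grb14, an inhibitor of insulin receptor signalling, fell from 1890.0, 1709, 1167 and 1492 to 633, 351 and 463 (-1.65 ± 0.38, adjusted p = 0.00502). Stat3, which transmits interleukin-6 signals, rose from 211, 517, 113 and 202 to 471, 772 and 842, with overlap (1.45 ± 0.37, adjusted p = 0.0118). Igf1 itself was at 8512, 10359, 14534 and 13577 in the controls and 9088, 9139.9 and 8204 at 5.5 h (-0.38 ± 0.16, adjusted p = 0.151). Calls ended for Ghr (without 5.5 h replicate 1 or control 1 or 3, adjusted p 0.0666 to 0.125), Igfals (without any array but 5.5 h 1 and control 2, adjusted p 0.0504 to 0.129), Grb14 (without 5.5 h replicate 2, adjusted p 0.0539) and Stat3 (without 5.5 h replicate 2 or 3 or control 3, adjusted p 0.0674 to 0.0695). Among 16 hormone receptors of the hepatocyte surface, Gucy2c and Ghr were the only calls and the median was -0.51.

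Liver transcription factors and nuclear receptors gave 3 fallers and 0 risers among 28, where 2.66% of all genes fell and 6.31% rose. Beside Nr1h4, these were Id3, an inhibitor of basic helix-loop-helix factors, from 1877, 2439.9, 1313 and 1046 to 626, 492 and 768 (-1.31 ± 0.34, adjusted p = 0.0139), and the pioneer factor gene Foxa2, from 747, 442, 471 and 521 to 242, 314 and 236 (-0.95 ± 0.27, adjusted p = 0.0287). Hnf4a was at 1156, 1769, 2036 and 1380.2 in the controls and 1294, 1342 and 1718 at 5.5 h (-0.10 ± 0.30, adjusted p = 0.895). Of 10 clock genes, Bhlhe40, a repressor in the circadian loop, fell from 509.5, 480.4, 459.6 and 609.6 to 236, 243 and 225 (-1.03 ± 0.29, adjusted p = 0.0259). The labels do not give the clock time of sampling. Calls ended for Id3 (without 5.5 h replicate 2, adjusted p 0.0987), Foxa2 (without any array but control 2 and control 3, adjusted p 0.0527 to 0.104) and Bhlhe40 (without 5.5 h replicate 1 or 2 or 3 or control 4, adjusted p 0.0687 to 0.0814).

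Among 33 P450, Ugt and Fmo genes of drug metabolism, 1 rose and 3 fell. The share of risers was below the 6.31% of all genes, and 2.66% of all genes fell. Por, the reductase that supplies electrons to all microsomal P450 enzymes, rose from 1699.7, 1631, 1574 and 1648 to 4944, 5783 and 5762 (1.72 ± 0.32, adjusted p = 0.000673), with a narrow range in each group. Cyp2a2, Ephx1 and Cyp2d3 fell by 1.71, 1.08 and 0.98 on the log2 scale (SE 0.52, 0.29 and 0.29, with adjusted p of 0.0346, 0.0171 and 0.0339). Of 20 sulfotransferases and dehydrogenases, Rdh7, a retinol dehydrogenase, rose from 1105, 577, 848 and 788 to 1742, 1895 and 1409 (1.02 ± 0.23, adjusted p = 0.00361), and Adh4 (-1.96 ± 0.62, adjusted p = 0.0443) fell with Akr7a3. Without single arrays the calls ended for Cyp2a2 (without any array but control 2, adjusted p 0.0517 to 0.125), Ephx1 (without 5.5 h replicate 1 or 2 or control 3 or 4, adjusted p 0.0509 to 0.0841), Cyp2d3 (without any array but 5.5 h 3 and control 2, adjusted p 0.0637 to 0.24), Adh4 (without any array but control 1 and control 2, adjusted p 0.0801 to 0.133) and Akr7a3 (without 5.5 h replicate 1, adjusted p 0.0607), whereas Por and Rdh7 held.

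Of 26 oxidant defence and glutathione genes, 2 rose and 4 fell, with a median of -0.35 (-0.08 with quantile normalization). The share of risers was close to the 6.31% of all genes, and 2.66% of all genes fell. Sod2, mitochondrial superoxide dismutase, rose from 551, 1042, 629.8 and 405 to 1561, 2717 and 3297 (1.90 ± 0.51, adjusted p = 0.016), and Hmox1, which degrades haem, from 1009, 2938, 1444 and 1775 to 4579, 5584 and 4210.1 (1.50 ± 0.44, adjusted p = 0.0313). Beside Gclm and Akr7a3, the glutathione transferase gene Gstt2 fell from 3459, 4230.3, 8708 and 5879 to 1475, 1073 and 1685 (-1.89 ± 0.51, adjusted p = 0.0185) and the glutathione reductase gene Gsr by 0.64 (SE 0.19, adjusted p = 0.0303). Calls ended for Sod2 (without 5.5 h replicate 2 or 3 or control 4, adjusted p 0.061 to 0.0866), Hmox1 (without any array but control 2, adjusted p 0.0608 to 0.139), Gstt2 (without 5.5 h replicate 2 or control 3 or 4, adjusted p 0.0503 to 0.107), Gsr (without any array but 5.5 h 1 and control 2, adjusted p 0.0508 to 0.138) and Akr7a3 (without 5.5 h replicate 1, adjusted p 0.0607), and 2 to 7 fallers were called in these fits, the most without control 2.

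Of 31 measured inflammatory mediators, 2 rose and 0 fell, near the 6.31% of all genes that rose, and the median was 0.31. With quantile normalization or median centring 1 rose, 1 fell and the median was 0.19. Il6r, the interleukin-6 receptor of hepatocytes, rose from 1194, 1305, 1469.8 and 1003 to 4222, 3641 and 3332 (1.57 ± 0.27, adjusted p = 0.00035), and the other was Nfkbia. The calprotectin genes S100a8, at 6.19, 224, 29.8 and 45.7 in the controls and 516, 373 and 317 at 5.5 h, and S100a9, at 99.5, 382, 147 and 155 and 709.8, 753 and 598, did not overlap but missed the threshold (adjusted p = 0.101 and adjusted p = 0.0857). Both are members of the neutrophil list, so its higher sum at 5.5 h is not separate from their values. The other 3 members, Defa5, RatNP-3b and Cxcr2, were below the array median, and the part of neutrophils was not tested. The chemokine gene Ccl2 was at 260.4, 538, 327 and 261 in the controls and 206, 272 and 297 at 5.5 h (-0.34 ± 0.72, adjusted p = 0.847). Without control 2 the list had 5 risers. The call of Nfkbia ended without any array but control 2 (adjusted p 0.0743 to 0.129).

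Of 19 interferon and antigen presentation genes 0 passed (background 6.31% higher and 2.66% lower), although Mx2, an antiviral GTPase, stood at 93.7, 439.6, 139 and 349 in the controls and 879, 769 and 2214 at 5.5 h (2.24 ± 0.75, adjusted p = 0.0616). Irf7 had a change of 1.35 ± 0.67, adjusted p = 0.238. Of 21 immediate-early and growth-arrest genes 1 rose, the antiproliferative gene Btg1, from 5934, 6537, 4678 and 4205 to 10395, 9402 and 8789 (0.85 ± 0.19, adjusted p = 0.00326). Of 20 cell-cycle genes 1 rose, Ccng1, a p53-responsive cyclin, from 575, 773, 349.6 and 291 to 1527, 2121 and 1807 (1.89 ± 0.42, adjusted p = 0.00343). Both calls held without any 1 array, while 1 of 21 and 1 of 20 are shares below the 6.31% of all genes.

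Of the lists not yet given a median, methionine and polyamine genes had 0.46, urea cycle genes 0.44, sulfotransferases and dehydrogenases -0.38 and genes of fatty acid synthesis -0.44. Other medians moved by more with the scaling, and the median of all genes itself was 0.09, 0.01 with quantile normalization and -0.03 with median centring. In the same order of settings, translation factors had 0.29, 0.17 and 0.17, cell-cycle genes 0.25, 0.14 and 0.13, and interferon genes 0.23, 0.17 and 0.11. Immediate-early genes had 0.21, 0.10 and 0.09, and amino acid transporters 0.16, 0.06 and 0.04. Transcription factors had -0.09, -0.20 and -0.21, clock genes -0.09, -0.18 and -0.21, and P450 genes -0.27, -0.15 and -0.39. Of the other calls described, quantile normalization also ended those of Stip1, Sgk1, Nfkbia, Psmc2, Psmc5, Eif2s1, Rps24, Ndufa5 and Pemt (adjusted p from 0.0537 for Pemt to 0.0907 for Psmc5). Median centring ended those of Stip1, Sgk1, Nfkbia, Psmc2, Psmc4, Psmc5, Eif2s1, Rps24, Ndufa5, Sec61a1, Ass1, Slc1a1, Lbp and Cyp27a1 (adjusted p from 0.0559 for Slc1a1 to 0.234 for Cyp27a1).

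**Figure D3:**
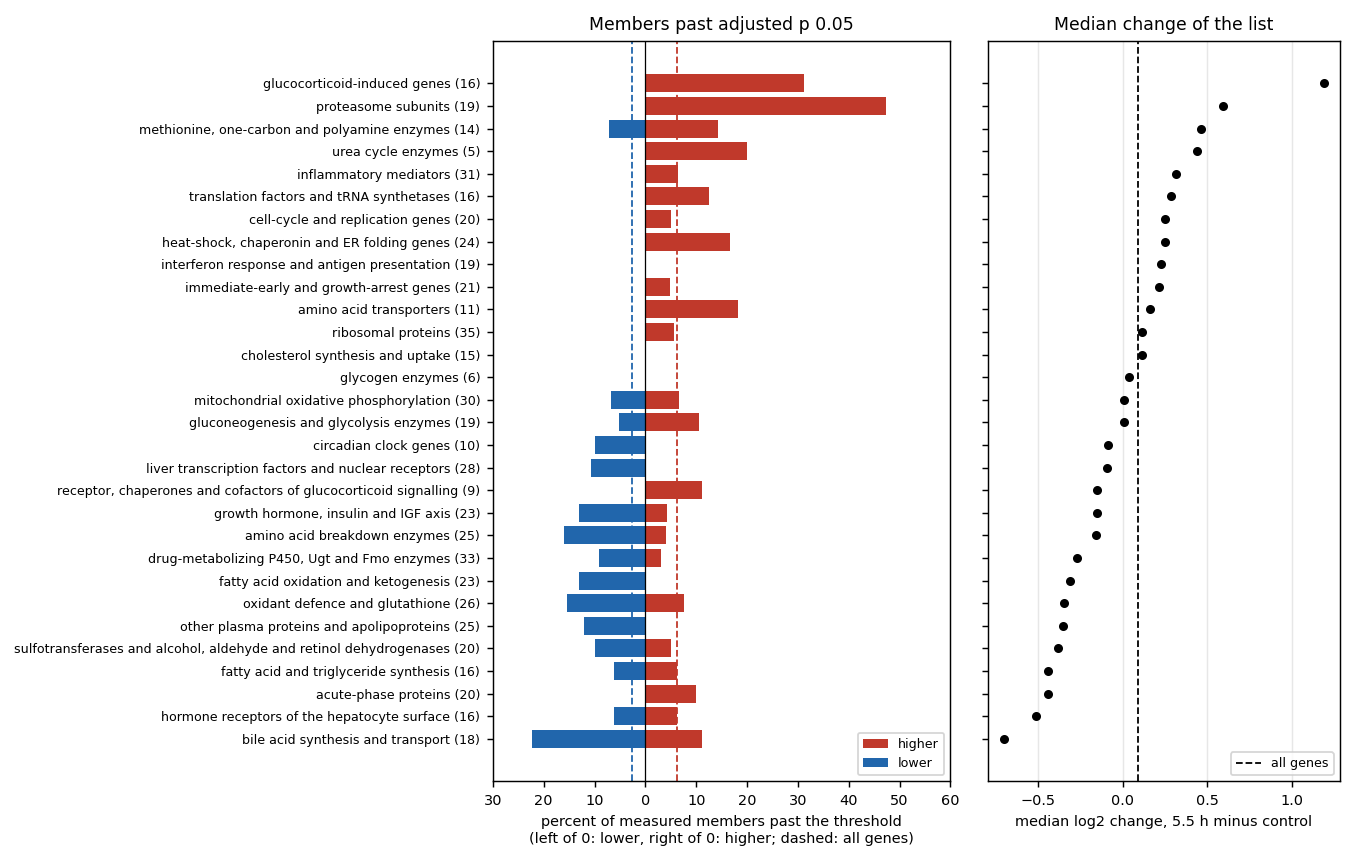
Left, percent of the measured members (number in brackets) of each of 30 gene lists that were higher (right of 0) or lower (left of 0) at 5.5 h at an adjusted p under 0.05, with dashed lines at the 6.31% and 2.66% of all genes. Right, median log2 change of each list, with a dashed line at 0.09 for all genes. Glucocorticoid-induced genes and proteasome subunits have the highest medians, 1.19 and 0.59, and bile acid genes the lowest, -0.70.

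The position of 5.5 h in the short course was read against its neighbours. Against 5 h (2 arrays) and 6 h (3 arrays) together, 0 probe sets passed the threshold (0%), with a lowest adjusted p of 0.999754, and 227 (2.6%) had an unadjusted p under 0.05. The median standard error was 0.25, and 95% of probe sets differed by less than 0.58 on the log2 scale, against 1.15 in the comparison with the controls. For the 30 genes with the largest changes, differences from 5 h and 6 h ran from -1.004 (Hrk) to 1.45 (Gucy2c). This does not show that the times were alike.

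Of the 15 risers, 8 had their highest group mean of the course at 5.5 h, and 6 of the 15 fallers their lowest, a count that the choice of genes at this time favours. Gucy2c averaged 72.9 ± 6.8 (SD, n = 3) at 1 h, 1919.7 ± 594 at 4 h, 2285 ± 1083 at 5.5 h, 1765 ± 527 (n = 2) at 12 h and 47.7 ± 6.91 (n = 2) at 72 h. Zfp354a was at 104 ± 6.98 (n = 2) at 2 h, 1377 ± 241 at 5.5 h and 92.9 ± 32.8 (n = 2) at 12 h, with wider spreads at its neighbours, such as 897 ± 826 at 7 h. Polg2 was highest earlier, at 3328 ± 777 at 1 h. Hsd3b7 was at 3704 ± 275 (n = 4) in the controls, between 825 ± 419.7 and 1193 ± 600.4 from 4 h to 6 h and at 3108 ± 587 at 18 h. Psma6 stood at 3227 ± 1129 at 1 h, 6264 ± 374 at 5.5 h and 3586 ± 171 at 18 h.

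**Figure D4:**
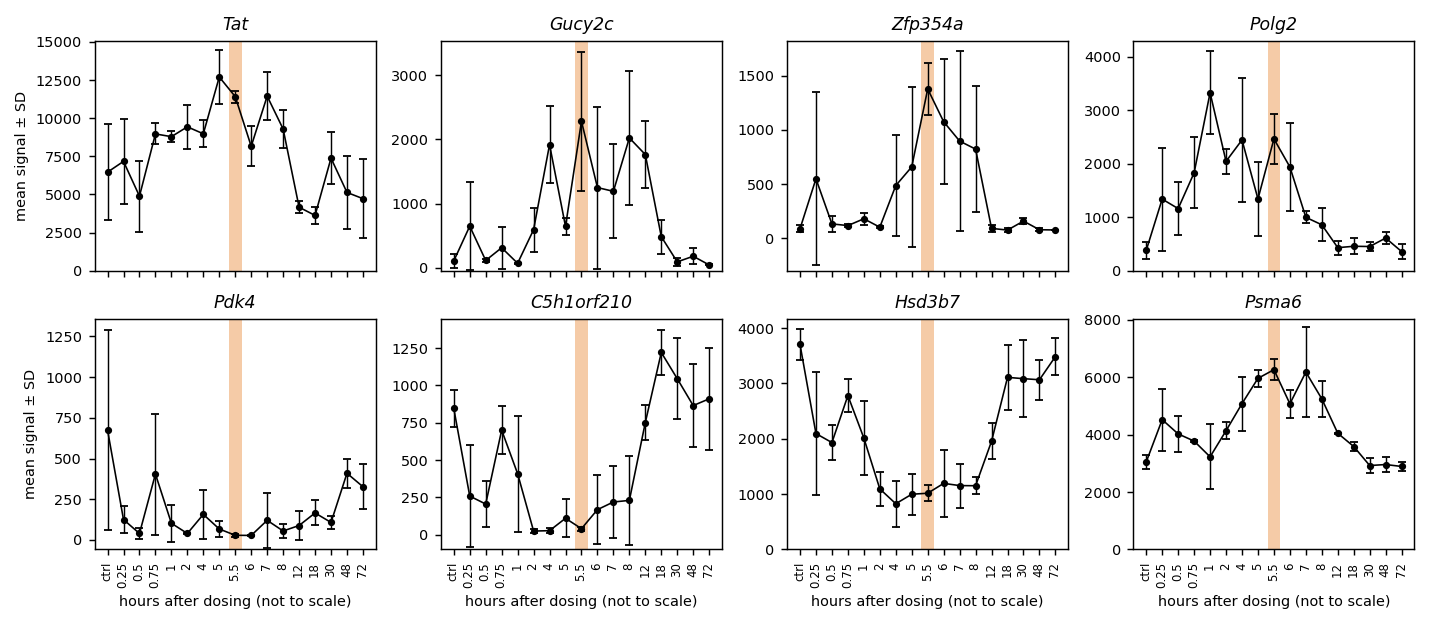
Mean signal with its SD, in intensity units, of 8 genes in the controls and at each time of the short course, 2 to 4 arrays a group, with 5.5 h shaded and times spaced evenly. Gucy2c, Zfp354a and Psma6 have their highest mean in the shaded band, Polg2 has its highest mean at 1 h, and C5h1orf210 and Hsd3b7 are low from 2 h to 8 h.

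Compared with 1 h, 171 probe sets were higher (1.96%) and 58 lower (0.664%) at 5.5 h. Quantile normalization gave 142 and 69, and median centring 110 and 70. The largest differences downwards were chemokine and immediate-early genes that were high at 1 h. Ccl3 averaged 1242 ± 1004 at 1 h and 18.2 ± 2.69 at 5.5 h (-4.39 ± 0.85, adjusted p = 0.00341), Cxcl10 6128 ± 2651 and 259 ± 82.1 (-4.36 ± 0.93, adjusted p = 0.00689), and Ccl2 4305 ± 3559 and 259 ± 46.9 (-3.60 ± 0.77, adjusted p = 0.00705). Ccl4 (-3.52 ± 0.77, adjusted p = 0.00841) and the zinc-finger gene Egr1 (-3.73 ± 0.85, adjusted p = 0.0115) followed. None of these 5 differed from the controls at 5.5 h past the threshold, which does not show a return to the control level. Egr1 stood at 2464, 4869, 2172 and 1686 in the controls and lower, at 513, 651 and 659, at 5.5 h, without overlap. The chemokine genes overlapped their controls. Upwards, the largest were Gucy2c (4.37 ± 0.73, adjusted p = 0.000887), Zfp354a (2.75 ± 0.72, adjusted p = 0.0312), Ppil3 (2.71 ± 0.51, adjusted p = 0.00276), the peroxisome gene Pex11a (2.10 ± 0.43, adjusted p = 0.00533) and Emc8 (1.88 ± 0.44, adjusted p = 0.0124). Leaving out 1 array ended the calls of Zfp354a for each of the 6 arrays, of Emc8 without 1 h replicate 2 or 3 or 5.5 h replicate 2, of Egr1 without 1 h replicate 1 or 3 and of Ccl4 without 1 h or 5.5 h replicate 2. The count of probe sets fell to 77 without 5.5 h replicate 2, to 90 without 1 h replicate 3, to 116 without 1 h replicate 1, and to 151 or 133 without 5.5 h replicate 1 or 3.

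Compared with 18 h, 615 probe sets were higher (7.04%) and 169 lower (1.93%) at 5.5 h. The balance turned with the scaling, to 346 higher and 230 lower with quantile normalization and 306 and 326 with median centring, which moved the median of all probe sets from 0.15 to -0.07. The largest differences upwards were Zfp354a (3.69 ± 0.72, adjusted p = 0.000874), Hspa13 (2.98 ± 0.42, adjusted p = 3.51e-05), Ptp4a1 (2.72 ± 0.37, adjusted p = 2.90e-05), Ube2g2 (2.50 ± 0.44, adjusted p = 0.000294) and Cited2 (2.47 ± 0.57, adjusted p = 0.00415). Ptp4a1, a phosphatase first described as an immediate-early gene of regenerating liver, was at 3491 ± 1835 (n = 4) in the controls, 13879 ± 846 at 5.5 h and 2077 ± 162 at 18 h. Downwards they were C5h1orf210 (-4.12 ± 0.86, adjusted p = 0.00183), Gprc5c (-2.88 ± 0.59, adjusted p = 0.0015), the choline kinase gene Chka (-2.82 ± 0.49, adjusted p = 0.000225), Hal (-2.72 ± 0.57, adjusted p = 0.00169) and Ak4 (-2.68 ± 0.59, adjusted p = 0.00265). All 10 held without any 1 array. Tat, not called against the controls, was higher at 5.5 h than at 18 h (1.66 ± 0.34, adjusted p = 0.00161). Of the 15 risers 12 were higher than at 18 h, and of the 15 fallers 7 were lower. The count of probe sets fell to 411 without 5.5 h replicate 2 and to 504 without 18 h replicate 2.

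The long course used other arrays of rat liver after 50 mg/kg methylprednisolone and shares no array with the short course, so genes called at 5.5 h could be read in its 6 h group (4 arrays against 4 controls). There, 222 of 10411 genes were higher (2.13%) and 145 lower (1.39%). Of the 299 risers, 297 were measured, 222 (74.7%) had a change above 0, 45 were called higher and 0 lower. Of the 126 fallers, 124 were measured, 96 (77.4%) were below 0, 22 were called lower and 0 higher. Over all 4527 genes measured on both designs, 43.9% were above 0 and 56.1% below. Tat was called there (2.08 ± 0.34, adjusted p = 0.000108), as were A2m (4.14 ± 0.57, adjusted p = 9.57e-06), Zfp354a (2.90 ± 0.51, adjusted p = 0.000288), Got1 (2.89 ± 0.58, adjusted p = 0.00151), Pfkfb1 (2.11 ± 0.31, adjusted p = 2.02e-05), Por (1.88 ± 0.41, adjusted p = 0.00427) and Klf9 (1.80 ± 0.22, adjusted p = 7.09e-07). Among falls, Spink1 (-1.36 ± 0.32, adjusted p = 0.0094), Dusp6 (-1.38 ± 0.31, adjusted p = 0.00638), Gprc5c (-1.15 ± 0.22, adjusted p = 0.000851) and Pdk4 (-1.11 ± 0.28, adjusted p = 0.0146) were called.

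For the largest riser, Gucy2c, the change there was -0.02 ± 0.33, adjusted p = 0.992. Its long-course means were 57.9 in the controls and 49.5 at 6 h, near the added constant of 32. Long-course arrays had a trimmed mean of 150 against 801 in the short course, so the same constant shrinks changes more there. Neither Pla1a (-0.45 ± 0.34, adjusted p = 0.645) nor Tfrc (0.05 ± 0.21, adjusted p = 0.966) passed. Psma6 had a change of 0.41 ± 0.18, adjusted p = 0.28 and Hsd3b7 one of -0.19 ± 0.24, adjusted p = 0.84. Probe sets differ between the designs, and a difference between the courses was not tested.

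**Figure D5:**
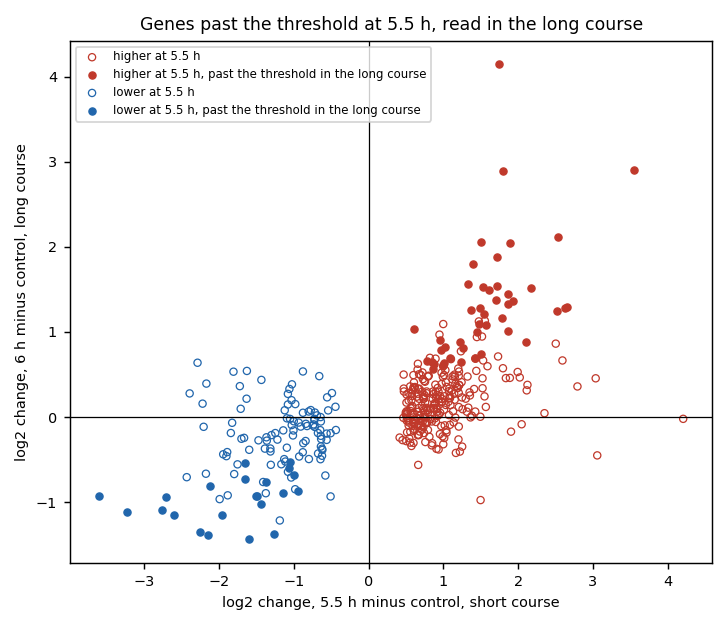
Log2 change at 5.5 h against control in the short course (horizontal) and at 6 h against control in the long course (vertical), for the 421 genes past the threshold at 5.5 h and measured on both designs. Filled points were also past the threshold in the same direction in the long course, 45 of the risers and 22 of the fallers, and none of the 421 was past it in the opposite direction.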

How the data were processed

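Signals of 47 short-course arrays (8799 probe sets) and 44 long-course arrays were used as the authors deposited them, in intensity units on a linear scale, 1 value per probe set and array. Software and scaling: not given in the sources used here. A 2% trimmed mean was 801 on every short-course array except 6 h replicate 3, at 150, which was rescaled. No pair of arrays was identical. Without the 59 control probe sets, log2(signal + 32) was fitted with limma 3.58.1 in R 4.3.3 (lmFit, eBayes with trend), 1 mean per time over all arrays of a course. P-values were adjusted by Benjamini-Hochberg over all probe sets, with 0.05 as the threshold. The fit was tested on simulated data.

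Of the 8740 probe sets, 7006 had 1 gene symbol, 308 several and 1426 none here; 6985 matched the RefSeq table (GRCr8) by Entrez number. A gene stands for its brightest probe set. Named were Tat and Nr3c1, the 15 largest rises and 15 largest falls past the threshold with groups apart, up to 4 called members per list and direction (or the largest changes where none passed), and the 5 largest in each direction against other times. Other members named were chosen after their values were seen. Members and lists were chosen with earlier results of these data known. Arrays were not taken as paired by replicate number. Alternatives covered the added constant, scaling, filter, variance model, array weights, replicate block and left-out arrays.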

Additional observations from a re-analysis of the deposited data

Results flagged for a closer look

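In the controls, 3 of the 110 genes named by rule had 1 array set apart from the other 3 by Dixon's criterion, which by chance picks out about 1 in 20 groups. For Cited2, control 1 was highest at a signal of 1139. For Gucy1b2, control 2 was lowest at 480.1, and for Ephx1, control 2 was lowest at 6446. The treated times differed among themselves by limma's test of the difference: 229 probe sets separated 5.5 h from 1 h, and 784 separated 5.5 h from 18 h.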

How the results depend on the processing

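For 5.5 h against control, 671 probe sets passed. The count was 388 with the replicate block, 457 with only the groups compared and 1127 with array weights. It was 142 with 6 h replicate 3 as deposited, and 286 to 888 when 1 array was left out. Against 1 h (229), it was 108 with only the groups compared, 580 with array weights, 38 with that array as deposited, and 77 to 284 without 1 array. Against 18 h (784), it was 1526 with array weights, 171 with that array as deposited, and 411 to 592 without 1 array. Against 5 h and 6 h it was 0 in every fit. The long course gave 464, 157 with only the groups compared, and 257 to 475 without 1 array, the fewest without 6 h replicate 4. The replicate block gave 211 against 1 h, 752 against 18 h and 521 in the long course. Deviations of same-numbered arrays from their group means correlated with those of 5.5 h at -0.27 to 0.21 for the controls, 0.015 to 0.099 for 1 h, -0.16 to -0.0038 for 6 h, -0.26 to 0.005 for 18 h and, over 2 pairs, 0.18 to 0.25 for 5 h. Neither the labels nor these values establish pairing. Control 4 is the only short-course array numbered 4. Against the controls, the block fit gave Got1 1.59 and Pfkfb1 2.68, as did the fit without control 4, where the main fit gave 1.80 and 2.53. Calls lost there under the block cannot be told apart from the loss of that control. Of 110 named genes, 97 called, 0 reversed under any alternative. Named genes that no longer passed numbered 58 with 6 h replicate 3 as deposited, 33 with the block, 31 with only the groups compared, 12 with median centring, 10 with quantile normalization, and 4 (without control 2) to 45 (without 5.5 h replicate 2) with 1 array left out. No array had a mean correlation under 0.9, so that alternative changed nothing. Dim probe sets, near the added constant, understate changes.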
